A study of Homo sapiens with 24 samples.

Results

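NHERF1, NHERF2 and PDZK1, which are scaffold proteins built from PDZ domains, and EZR, MSN, RDX and NF2, the genes of ezrin, moesin, radixin and merlin, were followed in SKBR3 cells. The members were taken by gene symbol from the platform annotation. That rule uses no measured value, though earlier results of these data were known when the family was chosen. They are 7 of 20046 named genes and 11 of 47323 probes on the arrays. All 7 genes kept at least 1 probe after the filter on dim probes, and 10 of the 11 probes were tested. SKBR3 is a human breast cancer line in which ERBB2, the gene of the receptor HER2, is amplified. The PMCA2, NHERF1 and HER2 knockdown groups were SKBR3 cells that received short hairpin RNA lentivirus for 48 h, aimed at NHERF1, at HER2 or at PMCA2, the plasma membrane calcium pump encoded by ATP2B2. The control group was SKBR3 cells under the same 48 h protocol, and its labels name no hairpin, so whether it received virus is not given in the sources used here. Total RNA of each group was hybridised to 6 Illumina arrays, 3 on each of 2 chips, 24 in all. The series set each knockdown beside control, and the knockdowns can also be set beside each other.

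PDZ domains bind the last residues of membrane proteins, so NHERF1 and its relatives gather receptors, channels and transporters under the plasma membrane. The tail of NHERF1 binds the FERM domain of ezrin, radixin and moesin (ERM proteins), whose other end binds actin filaments once the protein is opened by phospholipid and phosphorylation. Merlin, the product of the tumour suppressor NF2, shares the FERM domain and acts upstream of the Hippo pathway. In epithelial cells this scaffold holds up microvilli and the apical surface, and in HER2-positive breast cancer cells NHERF1, ezrin, PMCA2 and HER2 have been described at the same membrane sites.

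The control arrays stood apart from all knockdown arrays. The median r over genes was 0.996 for pairs of arrays from the same group and chip, 0.973 for pairs from different knockdowns, and 0.918 for a knockdown array paired with a control array. Of 22 markers of luminal, HER2-amplified cells fixed as a list, the summed intensity was 36272.8 to 37719.4 in the PMCA2 knockdown, 27392.8 to 28075.8 in the NHERF1 knockdown, 34538.3 to 36166.5 in the HER2 knockdown and 62329.2 to 66304 in control. SPDEF, TFAP2B and AZGP1 lay above the background level on no knockdown array, whereas each of the 22 did so on at least 1 control array. FOXA1, a luminal transcription factor, differed from control by -6.33, -5.05 and -5.28 in log2 in the PMCA2, NHERF1 and HER2 knockdowns. It stayed above background on all 6 arrays of each. Of the 22 markers, 4, 5 and 5 were called higher and 16, 17 and 15 lower in the same order. Over all genes tested, 33.3%, 35% and 34.8% were called higher and 32.5%, 30.3% and 31.2% lower. The knockdown arrays thus lacked part, not all, of the profile that the label SKBR3 implies. Of the trophoblast list, HSD3B1 was at least 87.1-, 43.2- and 17.7-fold higher in the PMCA2, NHERF1 and HER2 knockdowns and above the background level on no control array. The summed trophoblast list was 8871.47 to 9582.65, 6658.03 to 7225.05 and 4624.29 to 5061.62 in the same knockdowns, against 3985.02 to 4290.46 in control, and the mesenchymal list was 803.174 to 873.384, 2880.2 to 3074.72 and 1221.54 to 1365.87, against 665.181 to 716.572. The basal list summed to 1882.47 to 2104.74, 1364.58 to 1463.73 and 1584.42 to 1735.27, against 682.724 to 759.957 in control. Members within these lists did not all go one way. Their counts are to be read beside the shares of all genes just given. Of 14 tested trophoblast genes, 12, 10 and 8 were higher and 2, 3 and 4 lower with PMCA2, NHERF1 and HER2 knocked down. PSG4, a pregnancy glycoprotein, differed by 1.63, -2.44 and -2.91 in log2 by its brightest probe. In the HER2 knockdown its 2 other tested probes gave smaller differences, -1.09 and -0.97 in log2. Of 9 tested mesenchymal genes, 5, 6 and 5 were higher and 2, 0 and 0 lower, with TAGLN at -0.80, 2.66 and 0.87 in log2. Of 3 tested basal genes, 3, 2 and 1 were higher and 0, 1 and 1 lower, with EGFR 3.04-, 2.31- and 2.93-fold higher and ITGB4, an integrin of hemidesmosomes, at 1.75, -0.62 and -0.34 in log2. These lists differed from control alongside every comparison with control below, and their part in those results was not tested. The summed lists of 9 immune and 7 endothelial genes reached at most 464.015 and 417.867 on any array, with PTPRC and PECAM1 above background on no knockdown array. Single genes of them differed all the same, in both directions. Of 5 tested immune genes, 2, 1 and 1 were higher and 0, 0 and 1 lower with PMCA2, NHERF1 and HER2 knocked down. CD14 differed by 0.68, 2.10 and 0.56 in log2, though its other probe gave 0.11, 0.52 and 0.06. Of 4 tested endothelial genes, 2, 3 and 1 were higher and 1, 1 and 2 lower. ESAM differed by -2.24, -2.98 and -2.76 and VWF by 0.32, 0.25 and 0.56 in log2 in the same order. These counts too are to be read beside the shares of all genes, and the part of these lists was not tested either. No separate cultures are named in the labels. The p-values therefore measure the spread between arrays only, which may be technical. The groups occupied different positions on the chips, so that position and group cannot be told apart.

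NHERF1 was checked before the other members, because it is itself a target. Its probe gave log2 intensities of 10.88, 11.10 and 11.21 (lowest, median and highest of 6 arrays) in the PMCA2 knockdown. The same values were 8.21, 8.34 and 8.39 in the NHERF1 knockdown, 11.17, 11.30 and 11.31 in the HER2 knockdown and 11.88, 11.94 and 12.00 in control. Every knockdown array lay below every control array, and the NHERF1 knockdown arrays lay far below all others. NHERF1 stood at 54.1% of control in the PMCA2 knockdown (log2 -0.89, SE 0.05, limma with Benjamini-Hochberg adjusted p = 3.62e-14, n = 6 arrays per group). It stood at 8.10% in the NHERF1 knockdown (log2 -3.63, 95% interval -3.73 to -3.52, limma adjusted p = 7.82e-28) and at 62.9% in the HER2 knockdown (log2 -0.67, limma adjusted p = 1.44e-11). The transcript was thus lowest in the knockdown that names it. In bulk RNA, fewer cells that express a gene and less of its RNA per cell cannot be told apart. The other targets gave no such check. By its brightest probe ERBB2 was at 50.9%, 31.5% and 53.3% of control in the PMCA2, NHERF1 and HER2 knockdowns, lowest in the NHERF1 knockdown. Its other tested probe gave 67.1%, 54.9% and 67.5%, again lowest in the NHERF1 knockdown. ATP2B2 lay above background on 1 array in all.

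Among the knockdowns, the order of the NHERF1 level was HER2, PMCA2 and NHERF1 from high to low. It was 6.67-fold higher in the PMCA2 than in the NHERF1 knockdown (log2 2.74, limma adjusted p = 5.16e-24) and 7.77-fold lower with NHERF1 than with HER2 knocked down (log2 -2.96, limma adjusted p = 5.65e-24). Of the 12469 genes tested, 0.265% differed by more than NHERF1 between the PMCA2 and NHERF1 knockdowns and 0.0882% between the NHERF1 and HER2 knockdowns. The PMCA2 and HER2 knockdowns differed by -0.22 (log2, limma adjusted p = 0.00114), with arrays that overlapped. HER2 knockdown replicate 3 was that group's lowest array for NHERF1, and without it the difference was -0.24 (limma adjusted p = 0.000601). On chip 2 alone the difference did not pass (log2 -0.16, limma adjusted p = 0.0622).

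The NHERF1 promoter is shown because its transcript was lower in the PMCA2 and HER2 knockdowns too. The window is chr17:74748378-74748677 on the plus strand of GRCh38.p14, from 250 bases before the RefSeq transcription start to 50 after it, and capitals mark GC boxes (GGGCGG on either strand).
NHERF1: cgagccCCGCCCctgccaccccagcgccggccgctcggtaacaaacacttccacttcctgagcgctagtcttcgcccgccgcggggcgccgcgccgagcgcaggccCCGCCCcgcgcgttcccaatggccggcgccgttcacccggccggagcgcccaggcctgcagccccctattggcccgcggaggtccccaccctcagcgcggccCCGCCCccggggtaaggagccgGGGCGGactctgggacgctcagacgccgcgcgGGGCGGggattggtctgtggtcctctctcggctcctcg
It held 5 GC boxes and 3 CCAAT boxes. Of 35116 RefSeq promoters of this length, 44.95% held at least 1 GC box and 34.61% at least 1 CCAAT box, counted on both strands. Its GC content was 76.67% and it had 42 CpG, against medians of 58.67% and 14 over all promoters.

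**Figure D1:**
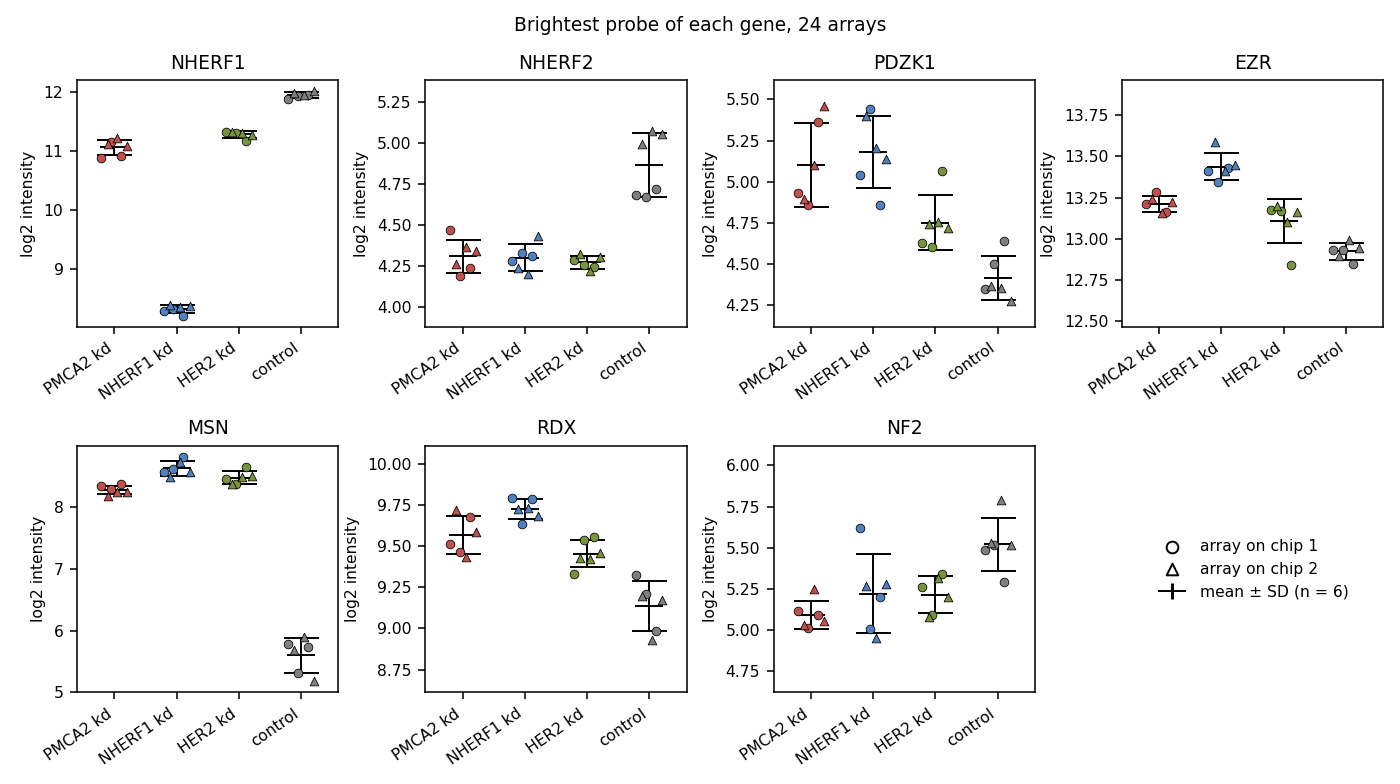
Log2 intensity of the brightest probe of each member on each of 24 arrays, with circles for chip 1, triangles for chip 2 and bars for mean ± SD (n = 6), each panel on its own scale. NHERF1 falls to 8.21 to 8.39 in its own knockdown, and MSN lies at 8.18 to 8.81 on the knockdown arrays, above all control arrays (5.18 to 5.89).

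The other scaffolds lay near the background level. NHERF2, the close relative of NHERF1 with the same pair of PDZ domains and an ERM-binding tail, had log2 intensities of 4.19, 4.30 and 4.47 (lowest, median, highest) in the PMCA2 knockdown. The values were 4.20, 4.30 and 4.44 in the NHERF1 knockdown, 4.22, 4.27 and 4.33 in the HER2 knockdown and 4.67, 4.86 and 5.07 in control. No knockdown array was above background and all 6 control arrays were, so the groups did not overlap and only a bound can be given. NHERF2 was at least 1.16-fold lower in each knockdown than in control (limma adjusted p = 7.9e-08, 5.91e-08 and 2.37e-08 for PMCA2, NHERF1 and HER2). It passed the filter only through the control arrays, which bears on its call, and with all knockdowns below background no level among them can be ordered.

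PDZK1, a scaffold with more PDZ domains that has no ERM-binding tail, showed the opposite pattern. Its log2 intensities were 4.86, 5.02 and 5.46 (lowest, median, highest) in the PMCA2 knockdown, 4.86, 5.17 and 5.44 in the NHERF1 knockdown, 4.60, 4.73 and 5.06 in the HER2 knockdown and 4.27, 4.36 and 4.64 in control. All arrays of the PMCA2 and NHERF1 knockdowns and 4 of the HER2 knockdown were above background, and none of control. It was at least 1.37-, 1.45- and 1.07-fold higher in the PMCA2, NHERF1 and HER2 knockdowns than in control (limma adjusted p = 3.5e-06, 6.34e-07 and 0.00828). HER2 knockdown arrays overlapped control, and without HER2 knockdown replicate 3, the group's highest array, the adjusted p was 0.0303. Within chip 1 alone that difference did not pass (log2 0.27, limma adjusted p = 0.223). Among the knockdowns, PDZK1 was higher by 0.43 in log2 with NHERF1 than with HER2 knocked down (limma adjusted p = 0.00178) and by 0.35 in the PMCA2 than in the HER2 knockdown (limma adjusted p = 0.00887). On chip 1 alone neither passed (log2 0.35 and 0.29, limma adjusted p = 0.148 and 0.23). The PMCA2 and NHERF1 knockdowns did not differ past the threshold (log2 -0.08, 95% interval -0.30 to 0.14, limma adjusted p = 0.582).

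All 3 ERM transcripts were higher in each knockdown than in control, with MSN changed far more than EZR and RDX. The promoters of the 3 genes are shown side by side because their transcripts moved the same way in every comparison against control. Capitals again mark GC boxes on either strand. The windows are chr6:158818186-158818485 (minus strand) for EZR, chr11:110296565-110296864 (minus strand) for RDX, and chrX:65588127-65588426 and chrX:65667404-65667703 (plus strand) for the upstream and downstream starts of MSN, all in GRCh38.p14 and from RefSeq.
EZR: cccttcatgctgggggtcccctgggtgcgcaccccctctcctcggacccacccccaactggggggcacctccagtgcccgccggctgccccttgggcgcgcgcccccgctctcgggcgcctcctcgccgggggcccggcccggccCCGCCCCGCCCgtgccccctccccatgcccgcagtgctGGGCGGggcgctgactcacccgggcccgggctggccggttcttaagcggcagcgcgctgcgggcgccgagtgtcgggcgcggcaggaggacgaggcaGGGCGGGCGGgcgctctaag
RDX: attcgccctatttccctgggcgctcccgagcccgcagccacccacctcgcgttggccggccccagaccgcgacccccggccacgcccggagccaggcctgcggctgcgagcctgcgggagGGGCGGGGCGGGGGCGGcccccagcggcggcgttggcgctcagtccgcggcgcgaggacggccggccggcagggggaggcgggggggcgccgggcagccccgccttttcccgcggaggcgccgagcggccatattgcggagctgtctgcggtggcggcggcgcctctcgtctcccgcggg
MSN upstream: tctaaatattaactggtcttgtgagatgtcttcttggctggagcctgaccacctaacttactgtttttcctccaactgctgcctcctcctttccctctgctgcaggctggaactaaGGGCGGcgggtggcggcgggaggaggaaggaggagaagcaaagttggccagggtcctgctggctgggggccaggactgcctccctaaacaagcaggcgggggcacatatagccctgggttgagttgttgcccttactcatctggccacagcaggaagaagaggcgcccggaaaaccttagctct
MSN downstream: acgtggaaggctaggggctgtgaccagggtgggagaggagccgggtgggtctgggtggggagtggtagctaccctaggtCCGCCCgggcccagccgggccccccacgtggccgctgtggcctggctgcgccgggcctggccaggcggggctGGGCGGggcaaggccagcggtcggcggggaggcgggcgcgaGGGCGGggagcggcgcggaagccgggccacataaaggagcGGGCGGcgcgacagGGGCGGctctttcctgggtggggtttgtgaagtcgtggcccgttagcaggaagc
The EZR window held 5 GC boxes, the RDX window 3, the upstream MSN window 1 and the downstream MSN window 5, against 44.95% of all promoters with at least 1. GC content ran from 57.0% in the upstream MSN window to 80.33% in the RDX window, and CpG numbered 36 for EZR, 46 for RDX, 7 for upstream and 29 for downstream MSN. The downstream MSN window also held 1 E box (CACGTG), found in 7.256% of promoters. No TATA box (TATAAA) was found in these windows on either strand, against 11.53% of all promoters. A TEAD motif (GGAATG, in 14.03% of promoters), a nuclear receptor motif (AGGTCA, in 13.83%) and a CArG box (in 1.293%) were likewise not found. The probes do not say which MSN start was used.

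Moesin, the ERM protein that is usually scarce in luminal breast cells, differed from control more than EZR and RDX did. MSN had log2 intensities of 8.18, 8.27 and 8.37 (lowest, median, highest) in the PMCA2 knockdown, 8.48, 8.59 and 8.81 in the NHERF1 knockdown, 8.37, 8.47 and 8.65 in the HER2 knockdown and 5.18, 5.71 and 5.89 in control. Its probe was above background on all 24 arrays, and the lowest knockdown array exceeded the highest control array by more than the whole spread within any group. MSN was 6.42-fold higher in the PMCA2 knockdown (log2 2.68, SE 0.09, limma adjusted p = 1.4e-19), 8.18-fold in the NHERF1 knockdown (log2 3.03, limma adjusted p = 8.84e-21) and 7.36-fold in the HER2 knockdown (log2 2.88, limma adjusted p = 2.9e-20). Of the genes tested, 2.37%, 1.73% and 2.02% differed by more in those comparisons. The size rested on the background correction, since without it the log2 differences were 1.59, 1.87 and 1.75, still past the threshold. Among the knockdowns, MSN was lower in the PMCA2 than in the NHERF1 knockdown (log2 -0.35, limma adjusted p = 0.00225), with no overlap of arrays. On either chip alone this difference did not pass (log2 -0.33 and -0.37, limma adjusted p = 0.0504 and 0.0531 for chips 1 and 2). The gap of the NHERF1 to the HER2 knockdown did not pass (log2 0.15, 95% interval -0.04 to 0.34, limma adjusted p = 0.192), nor did that of the PMCA2 to the HER2 knockdown (log2 -0.20, 95% interval -0.38 to -0.01, limma adjusted p = 0.081). Without control replicate 6 the last of these passed (log2 -0.20, limma adjusted p = 0.0363).

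EZR, the gene of ezrin, the main ERM protein of epithelial microvilli, had bright signals in every group and small differences. Its brighter probe gave log2 intensities of 13.16, 13.22 and 13.28 (lowest, median, highest) in the PMCA2 knockdown, 13.34, 13.42 and 13.59 in the NHERF1 knockdown, 12.84, 13.16 and 13.20 in the HER2 knockdown and 12.84, 12.93 and 12.99 in control. The PMCA2 and NHERF1 knockdown arrays all lay above control, and 1 HER2 knockdown array lay level with the lowest control array. EZR was 1.22-fold higher in the PMCA2 knockdown (log2 0.29, SE 0.05, limma adjusted p = 4.77e-05), 1.43-fold in the NHERF1 knockdown (log2 0.52, limma adjusted p = 4.95e-09) and 1.14-fold in the HER2 knockdown (log2 0.19, limma adjusted p = 0.00474). The other EZR probe gave 0.28, 0.58 and 0.20 in the same comparisons. On the brighter probe, the array level with control was HER2 knockdown replicate 3. Without it that probe's HER2 difference was 0.24 (limma adjusted p = 5.2e-05). On the other probe replicate 3 read 12.64, above the highest control array (12.56), while replicate 1 read 12.43, within the control range. On chip 1 alone, which holds both arrays, the HER2 difference of the brighter probe did not pass (log2 0.16, limma adjusted p = 0.189). Among the knockdowns, EZR was highest in the NHERF1 knockdown, by 0.33 against the HER2 knockdown (log2, limma adjusted p = 1.54e-05), while the PMCA2 knockdown stood 0.23 below the NHERF1 knockdown (log2 -0.23, limma adjusted p = 0.00111) but did not pass on chip 1 alone (log2 -0.18, limma adjusted p = 0.168). The PMCA2 and HER2 knockdowns did not pass against each other (log2 0.10, 95% interval -0.01 to 0.22, limma adjusted p = 0.125).

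RDX, the gene of radixin, followed the same order as EZR. Its log2 intensities were 9.43, 9.55 and 9.72 (lowest, median, highest) in the PMCA2 knockdown, 9.63, 9.73 and 9.79 in the NHERF1 knockdown, 9.33, 9.44 and 9.56 in the HER2 knockdown and 8.93, 9.18 and 9.33 in control. No knockdown array overlapped control. RDX was 1.35-fold higher in the PMCA2 knockdown (log2 0.43, SE 0.06, limma adjusted p = 1.59e-06), 1.51-fold in the NHERF1 knockdown (log2 0.59, limma adjusted p = 7.89e-09) and 1.25-fold in the HER2 knockdown (log2 0.32, limma adjusted p = 0.000102). It was higher with NHERF1 than with HER2 knocked down (log2 0.27, limma adjusted p = 0.00105), with no overlap, while the PMCA2 and HER2 knockdowns did not pass (log2 0.11, 95% interval -0.02 to 0.24, limma adjusted p = 0.164). The PMCA2 against the NHERF1 knockdown passed narrowly (log2 -0.16, limma adjusted p = 0.0431) and with overlap, and it failed in 8 of 24 fits that each left out 1 array, where the adjusted p reached 0.108. On chip 1 alone neither it (limma adjusted p = 0.201) nor the NHERF1 against the HER2 knockdown (limma adjusted p = 0.0755) passed, and on chip 2 alone it did not (limma adjusted p = 0.271). The 8 arrays were PMCA2 knockdown replicates 1, 2, 5 and 6 and NHERF1 knockdown replicates 1, 3, 4 and 5.

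**Figure D2:**
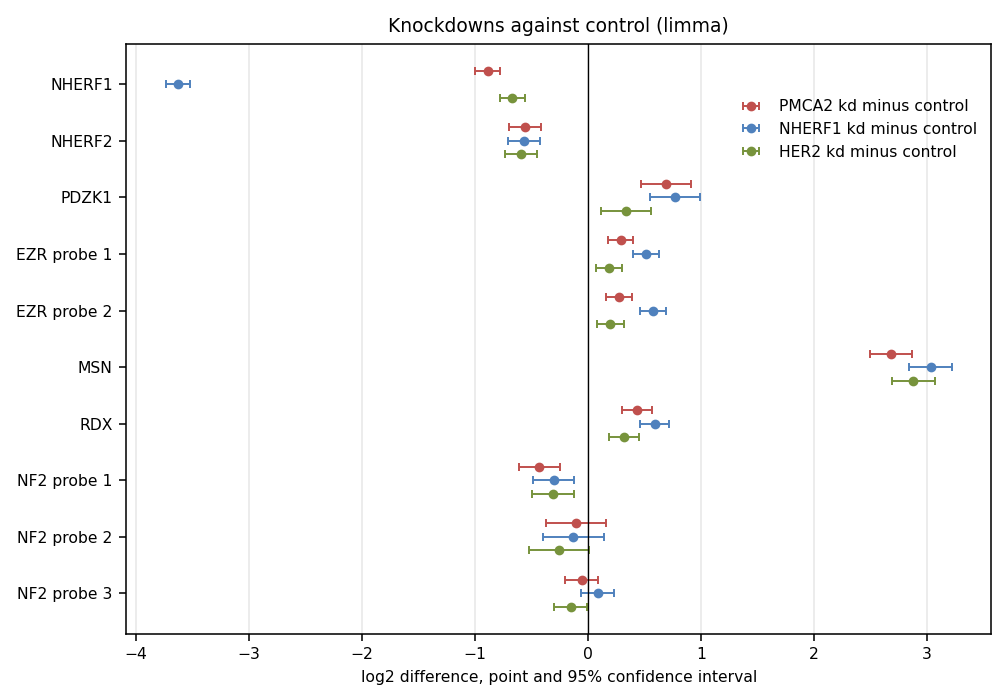
Log2 difference of each tested member probe from control, a point per knockdown, with 95% confidence intervals from limma (n = 6 arrays per group; EZR probes 1 and 2 are ILMN_3272378 and ILMN_1795937, NF2 probes 1 to 3 are ILMN_1671267, ILMN_2412244 and ILMN_1747580). NHERF1 in its own knockdown (-3.63) and MSN (2.68 to 3.03) lie far from 0, whereas EZR, RDX and NF2 lie between -0.43 and 0.59.

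NF2, the gene of merlin, was read by 4 probes near the background level that did not give the same answer. The brightest, ILMN_1671267, had log2 intensities of 5.01, 5.07 and 5.25 (lowest, median, highest) in the PMCA2 knockdown, 4.95, 5.23 and 5.62 in the NHERF1 knockdown, 5.08, 5.23 and 5.34 in the HER2 knockdown and 5.29, 5.52 and 5.79 in control. PMCA2 knockdown arrays lay below all control arrays, and those of the other knockdowns overlapped control. This probe was at 74.3%, 81.1% and 80.8% of control in the PMCA2, NHERF1 and HER2 knockdowns (log2 -0.43, -0.30 and -0.31, limma adjusted p = 0.000143, 0.00466 and 0.00382). ILMN_2412244 differed from control by -0.10, -0.13 and -0.26, and ILMN_1747580 by -0.06, 0.09 and -0.15, and neither passed in any of them (smallest limma adjusted p = 0.0954 and 0.0686). The fourth probe, ILMN_1676721, was above background on no array. With the mean of the kept probes in place of the brightest, the NHERF1 knockdown no longer differed past the threshold (log2 -0.11, limma adjusted p = 0.14), and on chip 1 alone neither did the NHERF1 (limma adjusted p = 0.376) or HER2 knockdown (limma adjusted p = 0.243). Between knockdowns, ILMN_1747580 was 0.24 higher with NHERF1 than with HER2 knocked down (log2, limma adjusted p = 0.0073). That difference was 0.09 on chip 1 and 0.39 on chip 2, and only 2 HER2 knockdown arrays were above background for this probe. NHERF1 knockdown replicate 6 read 5.146 on it, against 4.716 to 4.793 on that group's other arrays. The brightest probe passed in none of the 3 comparisons.

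Over the family, by brightest probe, 4 members were higher (PDZK1, EZR, MSN and RDX) and 3 lower (NHERF1, NHERF2 and NF2) in each knockdown against control. For NF2 this rests on ILMN_1671267 alone. Its other tested probes passed in none of these comparisons, and ILMN_1747580 had the opposite sign in the NHERF1 knockdown (log2 0.09). NHERF2 and PDZK1 were tested only through the groups in which they were high. Calls were common over all genes tested too, so the counts are a description and are to be read beside the shares of all genes. In the PMCA2 knockdown 33.3% of the 12469 genes were called higher and 32.5% lower, in the NHERF1 knockdown 35% and 30.3%, and in the HER2 knockdown 34.8% and 31.2%. At a change of at least 1.5-fold as well, 3, 4 and 3 members were called in the PMCA2, NHERF1 and HER2 knockdowns, against 26.5%, 26.4% and 26.9% of all genes. NHERF1, MSN and PDZK1 made up the 3 in the PMCA2 knockdown and RDX joined them in the NHERF1 knockdown, whereas NHERF1, MSN and NHERF2 were those of the HER2 knockdown. For PDZK1 and NHERF2 those sizes are fitted ones, above the bounds given. The members' median log2 difference was 0.29, 0.52 and 0.19 with PMCA2, NHERF1 and HER2 knocked down, against 0.00, 0.02 and 0.02 over all genes. These comparisons share the 6 control arrays.

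Between knockdowns fewer members passed. In the PMCA2 against the NHERF1 knockdown 1 member was higher (NHERF1) and 3 lower (EZR, MSN and RDX), where 26.4% of all genes were higher and 29.1% lower. In the NHERF1 against the HER2 knockdown 3 were higher (PDZK1, EZR and RDX) and 1 lower (NHERF1), beside 25.7% and 24.5% of all genes. In the PMCA2 against the HER2 knockdown 1 was higher (PDZK1) and 1 lower (NHERF1), beside 25.6% and 28.1%. With a change of at least 1.5-fold asked for as well, the counts were 1, 1 and 0 members, against 13.6%, 10.4% and 13% of all genes, and the member that passed was NHERF1 both times. The NHERF1 knockdown thus had the highest mean of EZR, MSN, RDX and PDZK1 among the 4 groups, though its lead over the HER2 knockdown for MSN and over the PMCA2 knockdown for PDZK1 did not pass the test.

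**Figure D3:**
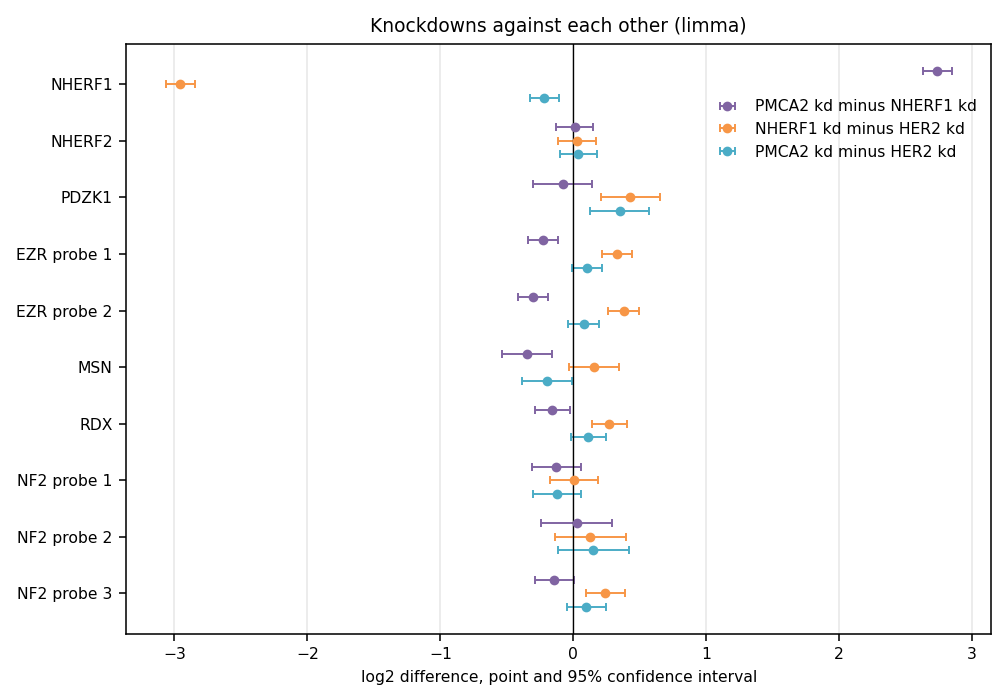
Log2 difference between pairs of knockdowns for each tested member probe, with 95% confidence intervals from limma (n = 6 arrays per group). Apart from NHERF1 itself (2.74 and -2.96), every difference lies within 0.43 of 0.

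Partners of the family were read from 7 lists. Among the membrane proteins that the ERM FERM domain binds, 14 of 26 were tested, and 5, 6 and 5 were higher and 5, 5 and 2 lower in the PMCA2, NHERF1 and HER2 knockdowns than in control. Over all genes tested, 33.3%, 35% and 34.8% were higher and 32.5%, 30.3% and 31.2% lower, the shares beside which the counts of every list are to be read. MUC1, a mucin of the apical surface, was 11.7-, 11.1- and 12.4-fold lower than control in the PMCA2, NHERF1 and HER2 knockdowns (log2 -3.55, -3.47 and -3.64, limma adjusted p = 2.2e-23, 3.51e-23 and 1.33e-23), and its other probes lay between -3.21 and -0.79 in log2. CD44, the hyaluronan receptor and a classic moesin and ezrin ligand, fell to 26.1% and 27.3% of control in the PMCA2 and NHERF1 knockdowns and did not pass in the HER2 knockdown (log2 0.16, limma adjusted p = 0.0511). Its other probe gave smaller differences of -1.20 and -1.23 in log2 with PMCA2 and NHERF1 knocked down. CEACAM1, an adhesion protein above background on no control array, was at least 6.46-, 11.4- and 8.22-fold higher in the PMCA2, NHERF1 and HER2 knockdowns by its brightest probe. Its other probes gave less, 0.19 and 1.87, 0.33 and 2.75, and 0.41 and 2.18 in log2 in the same order. PODXL, a sialomucin that binds both ezrin and NHERF proteins, was 3.23-, 3.59- and 6.71-fold higher, with log2 differences of 1.10, 1.34 and 2.06 for its other probe.

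Of 27 kinases, phosphatases and lipid kinases that act on ERM proteins, 25 were tested, and 7, 5 and 8 were higher and 11, 11 and 12 lower in the PMCA2, NHERF1 and HER2 knockdowns, against 33.3%, 35% and 34.8% of all genes higher and 32.5%, 30.3% and 31.2% lower. STK26 (MST4), a kinase that phosphorylates ezrin, was 2.75-, 4.83- and 7.33-fold higher in the PMCA2, NHERF1 and HER2 knockdowns (limma adjusted p = 7.36e-19, 3.22e-23 and 1.64e-25). Its relative STK24 (MST3) was lower, by -1.61, -1.99 and -3.52 in log2, though its other probe gave -0.73, -0.76 and -0.87. PIP5K1B was at least 2.81-, 2.69- and 3.62-fold higher, and its other probe gave 0.97, 0.89 and 1.53 in log2. PRKCA was 3.02-fold lower in the PMCA2 knockdown. MYO18A was 1.94-fold lower in the NHERF1 and CDC42BPA 2.38-fold lower in the HER2 knockdown, where their other probes gave -0.21 and -0.57 in log2. The ERM kinases STK10 and SLK, named after their values were seen, both had positive differences: STK10 was higher in all 3 (log2 0.44, 0.41 and 0.39), and SLK passed in the PMCA2 and HER2 knockdowns (log2 0.32 and 0.42) but not in the NHERF1 knockdown (log2 0.14, limma adjusted p = 0.103).

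Of 41 proteins that bind the PDZ domains of NHERF proteins, 26 were tested. In the PMCA2, NHERF1 and HER2 knockdowns 12, 13 and 13 of them were higher and 6, 7 and 7 lower. ABCC4, a drug and nucleotide transporter held at the membrane by these scaffolds, was 5.36-, 7.51- and 6.79-fold higher. EGFR was 3.04-, 2.31- and 2.93-fold higher, with other probes between 0.60 and 1.75 in log2. ATP2B4, a plasma membrane calcium pump related to PMCA2, was 5.08-fold higher in the PMCA2 knockdown (log2 2.34, limma adjusted p = 6.26e-22), where its other probes gave 0.96 and 2.67 in log2. It differed by 0.70 in the NHERF1 and 1.55 in the HER2 knockdown (log2), and 1 of its probes had the opposite sign in the HER2 knockdown (log2 -0.15). CTNNB1, the gene of beta-catenin, differed in sign between knockdowns, at -0.40 in the PMCA2 and 0.69 and 0.51 in the NHERF1 and HER2 knockdowns (log2), and was named after its values were seen.

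In other PDZ scaffolds (26 tested) 11, 8 and 10 were higher and 10, 8 and 9 lower in the PMCA2, NHERF1 and HER2 knockdowns. MPP1, a membrane scaffold of the erythrocyte skeleton, was at least 21.0-, 23.6- and 18.5-fold higher. Of 37 tested genes with other FERM domains, 14, 14 and 16 were higher and 12 lower in each. PTPN21, a phosphatase with a FERM domain, was 13.8-, 3.17- and 4.90-fold higher with PMCA2, NHERF1 and HER2 knocked down. FRMD6, a FERM protein of the Hippo pathway, was 4.98- and 5.03-fold lower in the PMCA2 and NHERF1 knockdowns. Only 1 and 2 arrays of those groups were above background for FRMD6. In the HER2 knockdown FRMD6 was above background on no array and at least 4.75-fold lower. Its other probe gave -1.27, -1.26 and -1.21 in log2. Of 33 tested Hippo pathway genes, 13, 15 and 10 were higher and 8, 5 and 9 lower. AMOT, an angiomotin that binds both merlin and YAP, was at least 49.1-, 42.5- and 21.4-fold higher. The YAP targets CCN1 and CCN2, named after their values were seen, differed in sign in the PMCA2 knockdown (log2 0.82 and -0.76) and in the NHERF1 knockdown (log2 0.18 and -0.18). In the HER2 knockdown CCN1 did not pass (log2 0.08, limma adjusted p = 0.151) and CCN2 was lower (log2 -0.76).

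Of 41 tested genes of microvilli and cortical actin, 22, 18 and 16 were higher and 14, 19 and 12 lower in the PMCA2, NHERF1 and HER2 knockdowns, against 33.3%, 35% and 34.8% of all genes higher and 32.5%, 30.3% and 31.2% lower. FSCN1, which bundles actin in filopodia, was 35.5-, 58.0- and 51.1-fold higher (log2 5.15, 5.86 and 5.68). TWF2 was 3.01-, 2.52- and 2.22-fold lower in the same order. The others with the largest changes went both ways. ESPN, an actin bundler of microvilli, was 2.17-fold and MISP 2.12-fold lower in the NHERF1 knockdown. PLS1 was 2.55-fold and SPTBN1 2.42-fold higher in the PMCA2 knockdown, and SCIN was 3.08-fold and SPTAN1 2.49-fold higher in the HER2 knockdown. List medians ran from -0.11 to 0.19 in log2, against 0.00 to 0.02 over all genes, and all comparisons share the control arrays.

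**Figure D4:**
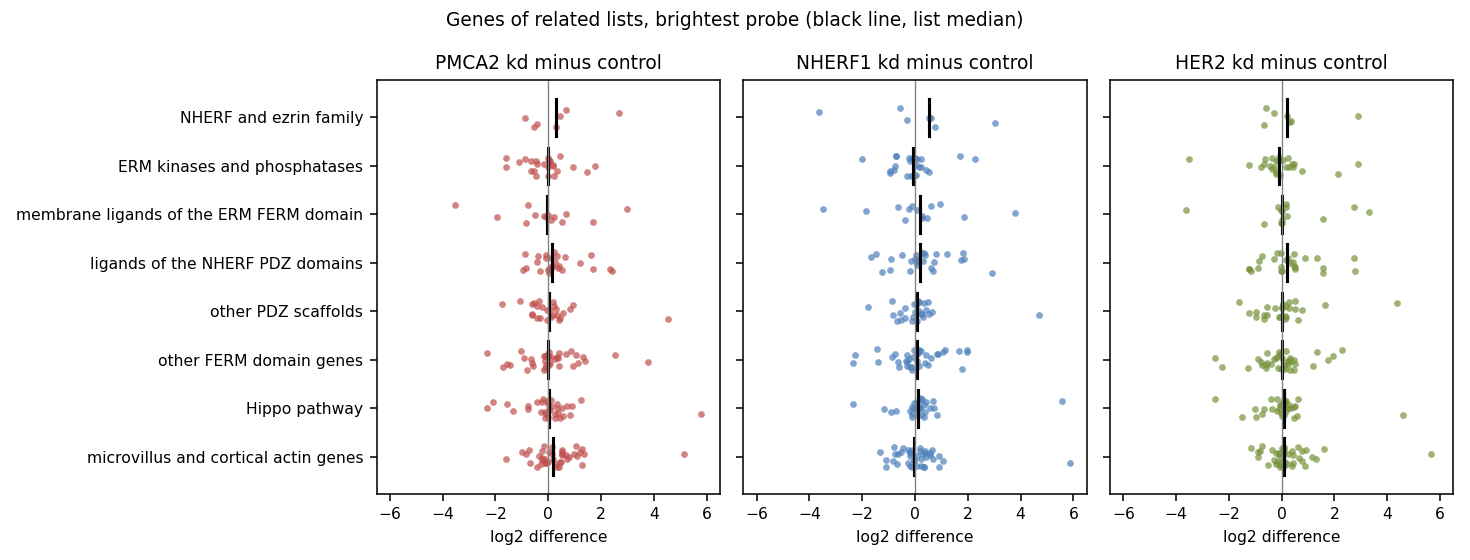
Log2 difference from control of each tested gene of the NHERF and ezrin family and of 7 related lists, by knockdown, with each list's median as a black line. Medians of the related lists lie between -0.11 and 0.19, with single genes such as FSCN1 (5.15 to 5.86), AMOT (4.58 to 5.78) and MUC1 (-3.64 to -3.47) far outside.

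Genes most like each member across the 24 arrays were ranked by Pearson r, which here carries mostly the steps between the 4 groups. SLC3A2, a subunit of amino acid transporters, was nearest to NHERF1 (r = 0.984), with mean log2 intensities of 10.87, 10.10 and 11.10 with PMCA2, NHERF1 and HER2 knocked down and 11.25 in control. ALDH3B1 and TRIB1 came next. SRC, the tyrosine kinase, was nearest to MSN (r = 0.993, means 9.36, 9.91, 9.64 and 6.96), followed by VGF and ABCC4. MED28, a subunit of Mediator, was nearest to EZR (r = 0.927), PRPF3, a splicing factor, to RDX (r = 0.919), and CCL22, a chemokine, to NHERF2 (r = 0.949). ARHGAP45 was nearest to PDZK1 (r = 0.886) and ZNF598 to NF2 (r = 0.820), both less closely than for the other members.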

How the data were processed

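Total RNA of 24 SKBR3 samples (6 per group) was read on Illumina arrays. The deposited values are probe intensities on a linear scale, which the authors had normalized by a method not given in the sources used here. No rank of the sorted values differs between arrays by over 0.406%, the medians of the arrays lie between 102.85 and 102.87, and the smallest intensity is 81.6, so background had not been subtracted. A further table of non-normalized signals was not used, since its 48 columns match no label. Probes were named through the platform annotation, matched by gene ID to the RefSeq table of GRCh38.p14. Of 47323 probes, 30113 had 1 symbol, 8 several and 17202 none, and 30074 matched. Promoters are those of RefSeq for the same build.

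With R 4.3.3 and limma 3.58.1, background was corrected by normexp (offset 16) with 437 olfactory receptor probes as negative controls, then quantile normalization and log2 followed. The background level was their 95th percentile, an intensity of 106. A probe was kept if above it on at least 6 arrays, which left 22586 probes and 12469 genes, each gene read by its brightest kept probe. A single limma fit over the 4 groups (residual df 20) gave all contrasts, with Benjamini-Hochberg adjustment over all kept probes and calls at adjusted p under 0.05, and the pipeline was tested on simulated data. Where a group had no array above background, a bound replaced the fold ("at least"). It was the bright group's mean over, per array, the higher of the lowest signal above background and the dim probe's own. The number of arrays limits the precision. Members, gene lists and tests were chosen with earlier results of these data known. Named were all member probes, up to 4 called genes per list and comparison with the largest change, 3 genes most like each member, the targets, and a few genes marked as named afterwards. Alternatives covered background, normalization, filter, probe summary, chip, pairing, groups fitted, fold threshold and leaving out each array.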

Additional observations from a re-analysis of the deposited data

Results flagged for a closer look

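Across 44 tests of a member probe in a group of 6 arrays, an array stood far from the other 5 in 4, where chance gives about 1 in 20 groups. HER2 knockdown replicate 3 did so for 3 probes. Its NHERF1 log2 intensity was 11.17, against 11.27 to 11.31 on the group's other arrays. Its PDZK1 value was 5.063, against 4.603 to 4.756, and its EZR value (ILMN_3272378) was 12.84, against 13.1 to 13.2. On the other EZR probe (ILMN_1795937) it read 12.64, inside the group's range of 12.43 to 12.80. This array also had the lowest median correlation of the 24 with its own group (0.995). NHERF1 knockdown replicate 6 stood apart for the NF2 probe ILMN_1747580, at 5.146 against 4.716 to 4.793 on the other arrays.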

How the results depend on the processing

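No member's difference changed direction past the threshold under any alternative run. Leaving out 1 array at a time left 7 members called in each comparison with control, 3 to 4 between the PMCA2 and NHERF1 knockdowns, 4 between the NHERF1 and HER2 knockdowns and 2 to 3 between the PMCA2 and HER2 knockdowns. NHERF1 in its own knockdown ranged from -3.64 to -3.60. Of 1008 such values for single members, 999 kept their side of the threshold, 8 lost it (all RDX, PMCA2 against NHERF1 knockdown) and 1 gained it (MSN, PMCA2 against HER2 knockdown). Asking for 1.5-fold as well left 3, 4 and 3 members against control for PMCA2, NHERF1 and HER2, and 1, 1 and 0 between PMCA2 and NHERF1, NHERF1 and HER2, and PMCA2 and HER2. With chip 1 arrays alone, 4 members were called for HER2 against control, and 1, 2 and 1 in those pairs of knockdowns. With chip 2 arrays alone, 2 were called between PMCA2 and NHERF1 and 1 between PMCA2 and HER2. Fits to 1 chip use fewer arrays. Asking for a signal above background on all 24 arrays drops NHERF2 and PDZK1 and left 1 member between PMCA2 and HER2. Of 534 values for single members under alternatives other than leaving out arrays, 494 kept their side, 35 lost it and 5 gained it. All 5 gains were of MSN between knockdowns, with a smallest adjusted p of 0.00493 with no background correction. Of 546 counts over gene lists, 508 stayed within 1.5 times. Sizes of probes near background depend most on the correction: without it PDZK1 differed by 0.22, 0.25 and 0.12 from control in the PMCA2, NHERF1 and HER2 knockdowns, against 0.69, 0.77 and 0.34 with it.

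With the replicate number as a replicate block, NHERF1 in its own knockdown kept -3.63 (limma adjusted p = 8.11e-24), RDX in the PMCA2 against the NHERF1 knockdown reached an adjusted p of 0.0506 and MSN in the PMCA2 against the HER2 knockdown 0.0495. This left 3 members called between PMCA2 and NHERF1 and 3 between PMCA2 and HER2, and the same counts as without it in the other comparisons. Deviations of same-numbered arrays from different groups correlated with a median r of 0.0156, over 0.1 in 4 of 36 pairs. For arrays of other numbers on the same chip the median r was 0.0098, over 0.1 in 1 of 72 pairs. Of 24 arrays, 9 correlated best with their own number. Whether same-numbered samples share more than a number cannot be told from these values.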
